A study of Rattus norvegicus with 12 samples.

Results

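The genes described here are 39 listed genes of the cell cycle and of DNA replication: the cyclins and cyclin-dependent kinases with their inhibitors, the Rb-E2F switch, the replication machinery, the genes of G2 and mitosis, and arrest genes linked to p53. They were measured in primary hepatocytes of Wistar rats, the main cell type of the liver, isolated with collagenase, purified on Percoll and used the day after isolation. Of the 39 genes, 37 were measured, out of 14217 genes with a probe set of their own; Rrm2 lies only on probe sets that also name another gene, and Btg2 is not in the annotation used. These 37 genes have 52 probe sets, and each gene is followed on the probe set with its highest mean over all arrays. Interferon alpha of the rat, a cytokine that induces antiviral genes, was given at 250 U/ml for 3 h or for 6 h, and control cultures went without it for the same times. Each of the 4 groups has 3 Affymetrix arrays, described in the labels as biological replicates 1 to 3; no source used here gives the age of the animals or says whether a replicate is 1 animal, so p-values measure only the spread between these samples. The values are log2 values made with RMA, a method that puts all arrays on 1 common distribution. A difference of 1 on this scale is a doubling.

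A cell that enters growth first makes D-type cyclins, which with Cdk4 and Cdk6 phosphorylate the retinoblastoma protein Rb1 and so release E2F factors; these switch on cyclin E and the genes of DNA replication. The kinase inhibitors Cdkn1a (p21) and Cdkn1b (p27) hold this step back, and p53 acts partly through Cdkn1a. Hepatocytes of an adult liver rest outside the cycle but can re-enter it, and type I interferons are known for slowing proliferation in many cell types. The arrays thus bear on a pair of questions, whether interferon alpha changed these genes and whether the cultures moved toward growth between 3 h and 6 h.

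Most genes of G2 and mitosis gave a dim signal in these cultures, while kinase inhibitors, replication genes and genes linked to p53 were above the array medians. Of the 13 genes of G2 and mitosis, 12 had a mean below the lowest array median of 5.16, and 5 of them, the proliferation marker Mki67 (2.95), the S and G2 cyclin Ccna2 (2.99), the mitotic kinases Aurkb (3.50) and Bub1 (3.66) and the DNA topoisomerase Top2a (3.84), lay below the lowest lower quartile of the arrays, 3.842. Of the 10 G1 genes 3 were below that median, Cdk6, Ccnd2 and E2f1. None of the 8 replication genes, 3 kinase inhibitors and 3 genes linked to p53 was. At the bright end stood Ccng1 (12.10), a p53 target, Gadd45a (11.19), a stress-induced growth arrest gene, Cdkn1a (10.53), Mdm2 (10.47), the ubiquitin ligase that keeps p53 low, and Pcna (10.06), the sliding clamp of DNA polymerases. These means place a probe set within the arrays and do not rank the transcripts, since probe sets differ in how well they bind. In a bulk RNA sample, fewer cells in cycle and less RNA per cell cannot be told apart, and on a dim probe set a change may also pass unseen. Markers of hepatocytes were high on every array, with Alb at 14.61 to 14.71 and Hnf4a at 11.06 to 11.55, and 12 of 12 listed hepatocyte markers lay above the array medians. Of the markers of other liver cells, 0 of 6 endothelial, 0 of 9 lymphocyte, 1 of 5 cholangiocyte, 4 of 10 stellate and 6 of 10 Kupffer cell markers lay above them. The mean over the Kupffer markers ran from 5.93 to 6.97 in the controls at 3 h, from 6.05 to 6.92 with interferon at 3 h, from 6.05 to 6.97 in the controls at 6 h and from 6.10 to 6.98 with interferon at 6 h.

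The promoters of 29 of the 37 measured genes could be read, from 250 bases before to 50 after the transcription start (RefSeq, assembly GRCr8). They are shown here for the genes on which the comparisons turn, Cdkn1b and Mcm3 for interferon, Cdkn1b, Mcm2 and Mdm2 for time, and for Ifit3, an interferon-induced gene used as a check. Capitals mark the letters searched, on either strand: the E2F site as TTTCCCGC, TTTCGCGC, TTTGCCGC or TTTGGCGC, the CCAAT box, the cell cycle homology element (CHR) as TTTGAA and the interferon-stimulated response element (ISRE) as GAAA and again GAAA after a gap of 2 bases. Cdkn1b lies at chr4:169491254-169491553 on the plus strand and has a pair of CCAAT boxes. Mcm2 lies at chr4:122918045-122918344 on the minus strand, with a pair of CHR matches and, just before the start, a palindrome that reads as an E2F site on both strands, so that the pair of matches overlap.
Cdkn1b: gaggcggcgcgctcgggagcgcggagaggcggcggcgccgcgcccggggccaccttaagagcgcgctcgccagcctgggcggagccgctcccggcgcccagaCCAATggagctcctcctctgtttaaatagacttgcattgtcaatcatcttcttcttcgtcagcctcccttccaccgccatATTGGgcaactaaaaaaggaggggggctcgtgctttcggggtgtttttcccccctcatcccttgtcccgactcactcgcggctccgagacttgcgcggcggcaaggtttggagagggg
Mcm2: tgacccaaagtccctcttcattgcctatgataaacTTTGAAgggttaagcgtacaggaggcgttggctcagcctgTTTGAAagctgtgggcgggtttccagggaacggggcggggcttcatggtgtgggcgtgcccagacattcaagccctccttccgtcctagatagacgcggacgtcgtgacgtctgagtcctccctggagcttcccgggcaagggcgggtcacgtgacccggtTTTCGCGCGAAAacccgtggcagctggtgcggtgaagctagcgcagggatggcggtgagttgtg
Mcm3 lies at chr9:30733697-30733996 on the minus strand, with 3 CCAAT boxes and E2F matches across the start and after it. Mdm2 lies at chr7:55200742-55201041 on the minus strand and has 1 CHR and 1 CCAAT match. Ifit3 lies at chr1:241527076-241527375 on the plus strand, and its capitals are an ISRE.
Mcm3: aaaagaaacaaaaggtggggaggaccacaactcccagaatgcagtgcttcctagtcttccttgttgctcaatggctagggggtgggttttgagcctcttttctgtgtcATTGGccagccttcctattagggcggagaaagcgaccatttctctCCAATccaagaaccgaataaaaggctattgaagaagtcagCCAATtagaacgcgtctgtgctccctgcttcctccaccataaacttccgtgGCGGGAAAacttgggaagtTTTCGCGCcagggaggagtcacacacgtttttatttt
Mdm2: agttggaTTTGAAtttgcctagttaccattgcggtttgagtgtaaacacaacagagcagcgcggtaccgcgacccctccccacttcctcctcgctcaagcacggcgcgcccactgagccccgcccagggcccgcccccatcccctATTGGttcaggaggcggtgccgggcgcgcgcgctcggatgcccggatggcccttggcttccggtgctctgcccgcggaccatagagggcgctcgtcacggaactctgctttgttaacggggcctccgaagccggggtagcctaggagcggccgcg
Ifit3: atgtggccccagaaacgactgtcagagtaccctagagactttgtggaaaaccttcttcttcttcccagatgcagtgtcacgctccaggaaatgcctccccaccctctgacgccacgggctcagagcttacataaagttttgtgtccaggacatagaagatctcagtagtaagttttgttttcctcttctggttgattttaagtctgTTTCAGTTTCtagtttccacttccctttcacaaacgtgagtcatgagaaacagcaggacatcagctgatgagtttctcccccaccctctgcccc
An E2F match stood in 7 of the 29 promoters (24.1%), those of Mcm2, Mcm3, Mcm5, Mcm6, Mcm7, Rb1 and Cdk1, and in 2.14% of all 33469 promoters of that length. CCAAT stood in 20 of the 29 (69.0%) against 37.5% of all, and the CHR letters in 9 (31.0%) against 18.3%. The ISRE letters stood in 0 of the 29 promoters, in 3.92% of all, and in 3 of the 4 interferon check genes. A match is a description of the sequence and not a bound site, and the absence of a match covers only these letters in this window.

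Interferon alpha was not seen to change any of the 37 cell cycle genes, at 3 h or at 6 h. At 3 h 0 of 37 were called by limma at an adjusted p under 0.05 (Benjamini-Hochberg over all 31042 probe sets), where 0.00644% of all probe sets were called, and at 6 h 0 of 37, where 0.387% were. Averaged over both times it was 0 of 37 against 0.435%. At an unadjusted p under 0.05 by limma the members numbered 1 at 3 h, 2 at 6 h and 0 in the average, and such probe sets made up 2.95%, 3.69% and 4.48% of all. With the replicate number as a block, a fit that compares arrays within each replicate, 0 members were called in each of these comparisons, against 0.0966%, 1.1% and 1.1% of all probe sets. The cells did respond on the same arrays: at 6 h the antiviral GTPase Mx1 rose by 4.33 ± 0.51 (SE) on the log2 scale (adjusted p = 0.00365 by limma), Ifit3, which binds viral RNA, by 4.49 ± 0.50 (0.00325), the chemokine Cxcl10 by 4.36 ± 0.52 (0.00365) and the transcription factor Irf7 by 3.11 ± 0.36 (0.00325). At 3 h Cxcl10 rose by 4.98 ± 0.52 (adjusted p = 0.0372 by limma), a call that was lost in 9 of 12 fits leaving out 1 array, with adjusted p up to 0.272, in the fit on the 2 groups alone (0.914) and with robust eBayes (0.0505). With the block its adjusted p was 0.00607, and that call was lost without replicate 2 (0.426) or 3 (0.669). The other 3 check genes were not called at 3 h without the block, although Ifit3 differed by 3.09 ± 0.50 (adjusted p = 0.154 by limma, 0.0499 with the block), Irf7 by 1.91 ± 0.36 (0.322 and 0.0901) and Mx1 by 1.91 ± 0.51 (1 and 0.145). At 3 h the test thus called 1 of 4 check genes, and 2 with the block.

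The intervals, each taken for 1 gene on its set with the highest mean, set a limit on what was missed. Other sets of a gene are not covered, and for the genes of G2 and mitosis the low level limits what the intervals can show. The 95% interval of the interferon difference lay within a 2-fold change in either direction for 36 of 37 members at 3 h, all but Ccnd1, and for 35 of 37 at 6 h, all but Ccnd1 and Ccne2. In the blocked fit it lay within 2-fold for 37 of 37 at both times, and within 1.5-fold for 37 at 3 h and 34 at 6 h. The median difference over the members was -0.007 at 3 h and -0.03 at 6 h, beside -0.01 and -0.02 over all probe sets.

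**Figure D1:**
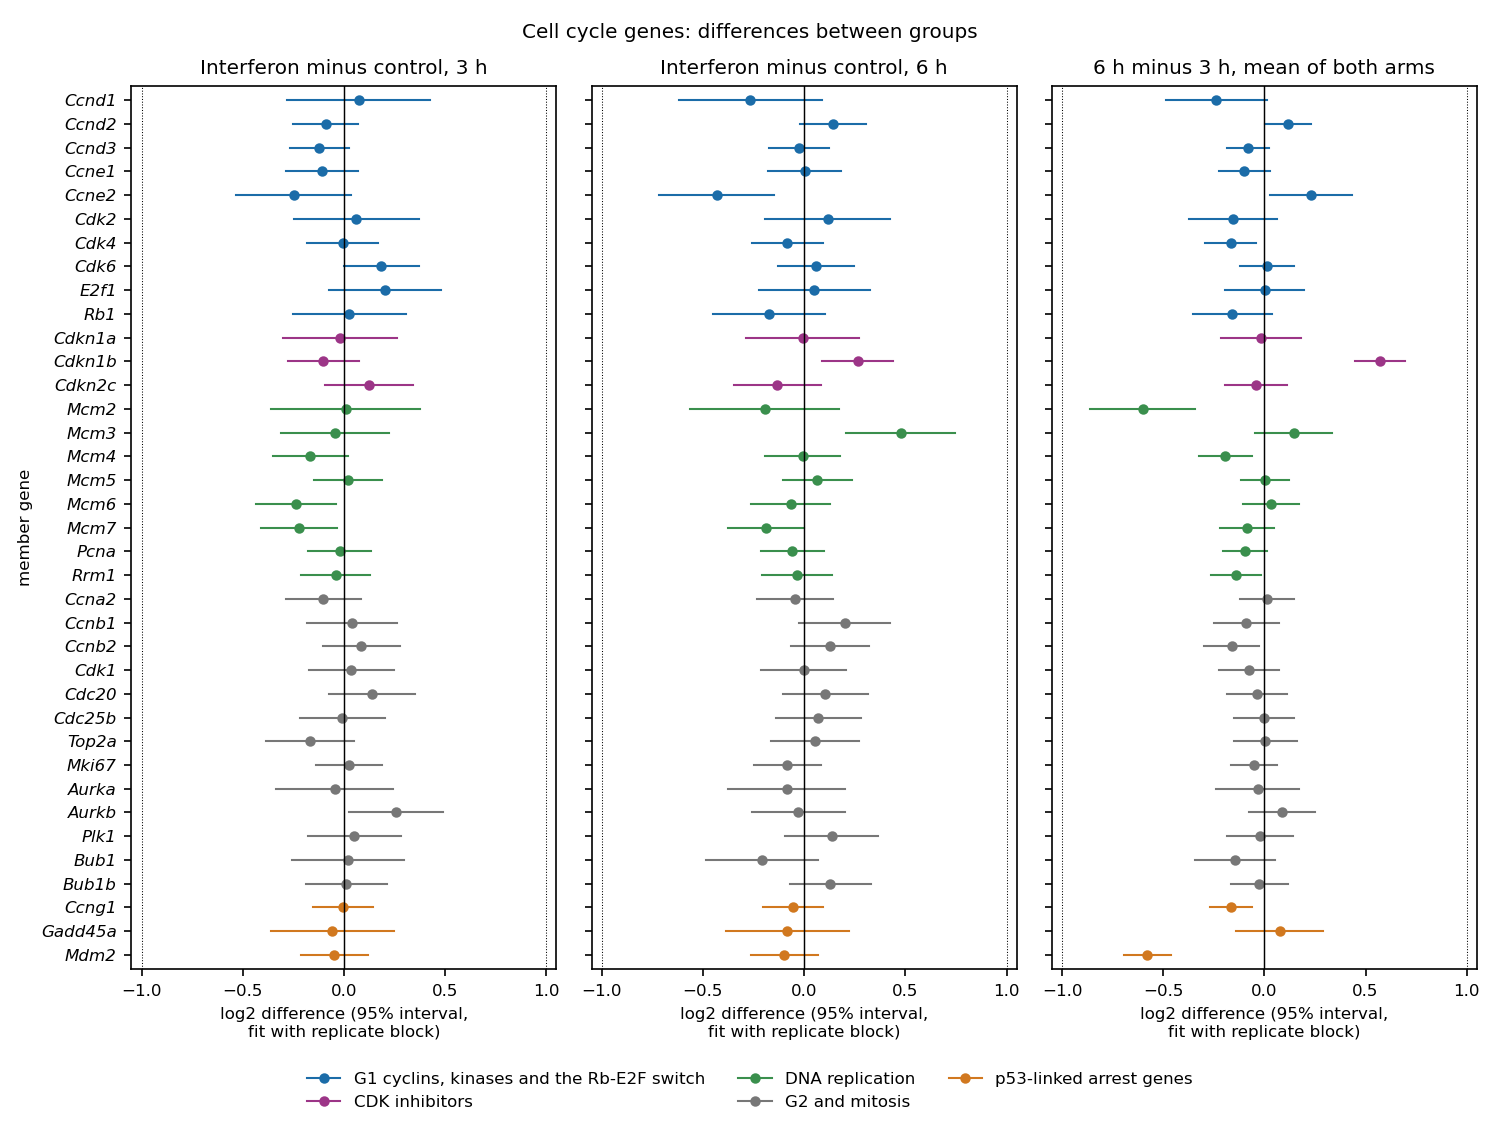
Log2 difference of each of the 37 genes (rows, coloured by role) for interferon minus control at 3 h and at 6 h and for 6 h minus 3 h averaged over both arms; points are estimates, bars 95% intervals of the limma fit with the replicate number as a block, dotted lines a 2-fold change. In all 3 panels every interval stays within 2-fold; in the time panel Cdkn1b stands to the right at 0.57, and Mcm2 and Mdm2 to the left at -0.60 and -0.58.

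Among the kinase inhibitors, Cdkn1b had the most regular values. In the controls at 3 h it read 9.43, 9.25 and 9.22 in replicates 1, 2 and 3, and with interferon 9.20, 9.20 and 9.19; at 6 h the controls read 9.70, 9.63 and 9.73 and the interferon arrays 9.96, 10.05 and 9.85. The interferon arrays lay below all controls at 3 h and above all controls at 6 h. The difference was -0.10 ± 0.08 at 3 h and 0.26 ± 0.08 at 6 h, a level 1.20-fold higher, and neither passed the test (adjusted p = 1 and 0.660 by limma, 0.842 and 0.274 with the block). The test of the difference between the times gave 0.37 ± 0.12, adjusted p = 1 by limma and 0.783 with the block. A second, dim probe set of Cdkn1b with a mean of 4.26 gave -0.11 ± 0.15 for interferon at 6 h. Cdkn1a, which p53 induces, and Cdkn2c, an inhibitor of Cdk4 and Cdk6, differed at 6 h by -0.007 and -0.13. A second probe set of Cdkn1a gave -0.19 ± 0.50 at 3 h and 0.25 ± 0.50 at 6 h (adjusted p = 1 by limma at both times, 0.764 and 0.514 with the block). At 6 h that set read 8.95, 10.23 and 8.70 in the controls and 9.29, 10.36 and 8.97 with interferon, higher in 3 of 3 replicates, while at 3 h it was lower in 3 of 3.

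Of the replication genes, Mcm3, a subunit of the helicase that opens DNA at origins, had the lowest p at 6 h. Its controls read 5.36, 5.16 and 5.25 at 6 h and its interferon arrays 5.70, 5.98 and 5.52, so that the groups did not overlap. At 3 h they did overlap, at 5.49, 5.53 and 5.09 against 5.43, 5.21 and 5.33. The difference at 6 h was 0.48 ± 0.14, 1.39-fold, with an adjusted p of 0.601 by limma and 0.145 with the block. The other 5 Mcm subunits of the helicase, Pcna and Rrm1, the large subunit of ribonucleotide reductase, differed by -0.20 (Mcm2) to 0.07 (Mcm5) at 6 h. At 3 h the values of the 8 ran from -0.24 (Mcm6) to 0.02 (Mcm5).

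The G1 genes ran from -0.43 to 0.14 at 6 h. Ccne2, a cyclin E that activates Cdk2 at the start of S phase, marked the low end, and on its set with the highest mean was lower with interferon in 3 of 3 replicates at each time. Its controls read 5.12, 5.15 and 5.45 at 3 h and 5.27, 5.23 and 6.20 at 6 h, and its interferon arrays 4.93, 4.71 and 5.34 at 3 h and 5.20, 4.78 and 5.42 at 6 h. The groups overlapped at both times, and averaged over them the difference was -0.34 ± 0.19 (adjusted p = 1 by limma, 0.170 with the block). Its second, dimmer set did not share this, at 0.09 ± 0.16 at 3 h, where it was higher in 3 of 3 replicates, and -0.02 ± 0.12 in the average, and the mean of both sets gave -0.18. Ccnd2, a D-type cyclin, had the next lowest p after Cdkn1b and Mcm3 in the test between the times. It read 4.14, 4.05 and 4.09 in controls and 4.11, 3.91 and 3.99 with interferon at 3 h, then 4.28, 3.94 and 4.06 against 4.26, 4.19 and 4.27 at 6 h (difference between the times 0.23 ± 0.13, adjusted p = 1 by limma). Ccnd2 and Cdk6 both had a mean below the lowest array median. Cdk6 read 3.83, 3.96 and 3.72 in controls at 3 h and 4.13, 3.99 and 3.94 with interferon. Its groups nearly separated, yet its difference of 0.19 ± 0.09 did not pass (adjusted p = 1 by limma), and at 6 h it was near 0, at 3.83, 3.96 and 3.95 against 3.93, 3.98 and 4.00.

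In the group of G2 and mitosis, Aurkb, a kinase of chromosome segregation, had the lowest p at 3 h, with controls of 3.31, 3.31 and 3.38 and interferon arrays of 3.66, 3.29 and 3.81. Replicate 2 did not share the higher values, and at 6 h, at 3.49, 3.63 and 3.56 against 3.50, 3.53 and 3.57, the groups lay together. The difference at 3 h was 0.26 ± 0.12 (adjusted p = 1 by limma). Top2a, which untangles DNA, read 4.00, 3.78 and 3.98 in the controls at 3 h and 3.85, 3.66 and 3.74 with interferon, and overlapped there and at 6 h (3.66, 3.92 and 3.87 against 3.85, 3.96 and 3.79). Ccnb1, the cyclin that starts mitosis with Cdk1, read 4.56, 4.66 and 4.70 against 4.63, 4.64 and 4.76 at 3 h, and 4.36, 4.45 and 4.60 against 4.53, 4.94 and 4.54 with interferon at 6 h (0.20 ± 0.12, adjusted p = 1 by limma). A second set of Ccnb1 gave 0.02 ± 0.09 at 6 h, and the mean of both sets 0.11. Aurkb, Top2a and Ccnb1 all had a mean below the lowest array median, and Aurkb and Top2a also lay below the lowest lower quartile. The genes linked to p53 had differences of -0.10 (Mdm2) to -0.05 (Ccng1) at 6 h.

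Counted by separation alone, at 3 h 1 member, Cdc20, lay above the controls on all interferon arrays and 2, Ccne1 and Cdkn1b, below, or 2.70% and 5.41% of the members; over all probe sets this held for 4.53% and 2.97%. At 6 h Mcm3 and Cdkn1b lay above and Ccng1 below, 5.41% and 2.70%, beside 4.29% and 3.46% of all probe sets. In the test of the difference between the times, 0 of 37 members were called by limma with and without the block, as were 0% of all probe sets. At an unadjusted p under 0.05 by limma there were 2 members, Cdkn1b and Mcm3, beside 2.17% of all probe sets.

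Time in culture moved a few members, with Cdkn1b up and Mcm2 down. Averaged over the control and interferon arms, 1 of 37 members rose and 1 fell from 3 h to 6 h by limma, where 3.89% of all probe sets were called (1.97% higher, 1.93% lower), so that the count over the members is near that background. At an unadjusted p under 0.05 there were 4 members, beside 16.6% of all probe sets. With the replicate block 1 rose and 4 fell, against 18.4% of all probe sets (8.43% higher, 10% lower). In the controls alone 0 of 37 were called without the block, against 0.19%, and 3 had an unadjusted p under 0.05, against 10.1%. The block gave 2 calls in the controls, Cdkn1b up and Mdm2 down, against 8.15% (3.33% higher, 4.82% lower). In the controls 28 of 37 members had a difference below 0, with a median of -0.06 beside 0.01 over all probe sets. The share of all probe sets below 0 was not counted, and genes read on the same arrays are not independent. The differences were small, with a median absolute value of 0.087 beside 0.104 over all probe sets. By separation, the controls at 6 h lay above those at 3 h for Cdkn1b and Aurkb (5.41%, beside 7.82% of all probe sets) and below for Ccng1, Cdk1, Mcm2 and Rrm1 (10.8%, beside 6.3%).

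Cdkn1b, which binds and blocks the complexes of cyclin E and cyclin D, rose by 0.57 ± 0.06 on the log2 scale, to a level 1.49-fold higher (adjusted p = 0.00125 by limma, 9.4e-05 with the block). It was higher at 6 h in 3 of 3 replicates of each arm, by 0.28, 0.38 and 0.51 in the controls and by 0.76, 0.85 and 0.66 with interferon. The call was kept in 12 of 12 fits leaving out 1 array, with adjusted p of 0.00266 to 0.00593. In the controls alone the difference was 0.39 ± 0.08 (adjusted p = 0.100 by limma, 0.0140 with the block), and the blocked call was lost without replicate 1, 2 or 3 (0.0714, 0.0890 and 0.148). The dim second probe set gave 0.29 ± 0.11 in the average (adjusted p = 0.183 by limma, 0.0815 with the block).

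Of the replication genes, Mcm2, another helicase subunit, fell by 0.60 ± 0.12, a level 1.52-fold lower (adjusted p = 0.0242 by limma, 0.00454 with the block). It read 6.22, 6.50 and 6.11 in the controls at 3 h and 5.60, 5.84 and 5.88 at 6 h; with interferon it read 6.10, 6.57 and 6.19, then 5.74, 5.23 and 5.77. All 6 arrays at 3 h were above all 6 at 6 h. The call was lost without the control at 3 h of replicate 1 (adjusted p = 0.0525) or 2 (0.0554), the interferon array at 3 h of replicate 2 (0.0530) or the control at 6 h of replicate 1 (0.0628), which leaves Cdkn1b as the 1 member called. Mcm4 was called in the blocked fit alone, at -0.19 ± 0.06 (block SE; adjusted p = 0.526 by limma, 0.0452 with the block), and that call was lost without replicate 1 (0.243) or 3 (0.286). It read 5.80, 5.34 and 5.96 in the controls at 3 h and 5.44, 5.33 and 5.52 at 6 h, and with interferon 5.63, 5.26 and 5.72, then 5.50, 5.14 and 5.62. The means of the replicates spanned 0.44, more than the step in time. In the controls all 8 replication genes had differences below 0, from -0.50 (Mcm2) to -0.02 (Mcm5), with none called; averaged over both arms 5 were below 0 and 3 above. Rrm1 was at 7.19, 7.41 and 7.28 in the controls at 3 h and 7.08, 7.18 and 7.19 at 6 h, and its averaged difference was -0.14 ± 0.07 (adjusted p = 0.329 by limma).

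**Figure D2:**
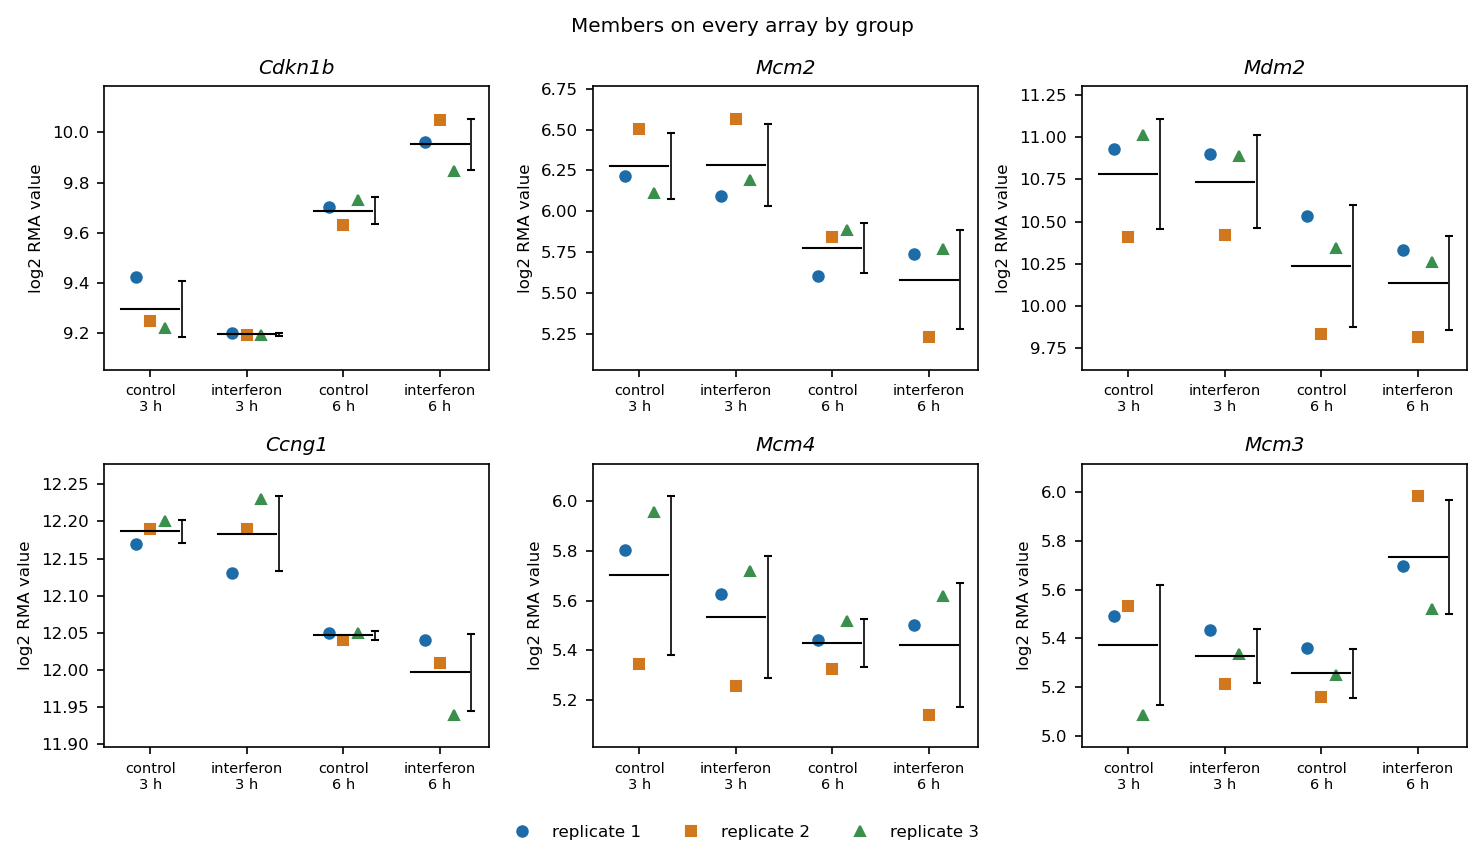
Log2 RMA value on each of the 12 arrays for Cdkn1b, Mcm2, Mdm2, Ccng1, Mcm4 and Mcm3, by group; symbols are replicates 1 to 3, horizontal lines group means and error bars 1 SD (n = 3). Cdkn1b lies higher at 6 h in both arms and Mcm2 lower, Mdm2 lies lower in each of the 3 replicates with replicate 2 lowest in all groups, and Mcm3 reads highest with interferon at 6 h, where its difference did not pass the test.

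Of the genes linked to p53, Mdm2 and Ccng1 fell in the blocked fit. Mdm2 read 10.93, 10.41 and 11.01 in the controls at 3 h and 10.53, 9.83 and 10.34 at 6 h, and with interferon 10.90, 10.42 and 10.89, then 10.33, 9.82 and 10.26. The groups overlap because replicate 2 was low throughout, but within a replicate the step was alike, from -0.404 to -0.675 in the controls and from -0.569 to -0.635 with interferon. The averaged difference was -0.58, 1.49-fold lower, with SE 0.16 and an adjusted p of 0.0761 by limma without the block, and SE 0.05 and 6.3e-05 with it; the blocked call was kept without any 1 replicate (0.00166 to 0.00539). In the controls alone the blocked call (0.00225) was lost without replicate 3 (0.0572). Ccng1 read 12.17, 12.19 and 12.20 in the controls at 3 h and 12.05, 12.04 and 12.05 at 6 h, and with interferon 12.13, 12.19 and 12.23, then 12.04, 12.01 and 11.94. All 6 arrays at 3 h were above all 6 at 6 h, and the difference was small, -0.16 ± 0.05 (adjusted p = 0.0810 by limma, 0.0342 with the block, lost without replicate 1, 2 or 3 at 0.0922, 0.181 and 0.256). The third gene, Gadd45a, differed by 0.08.

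**Figure D3:**
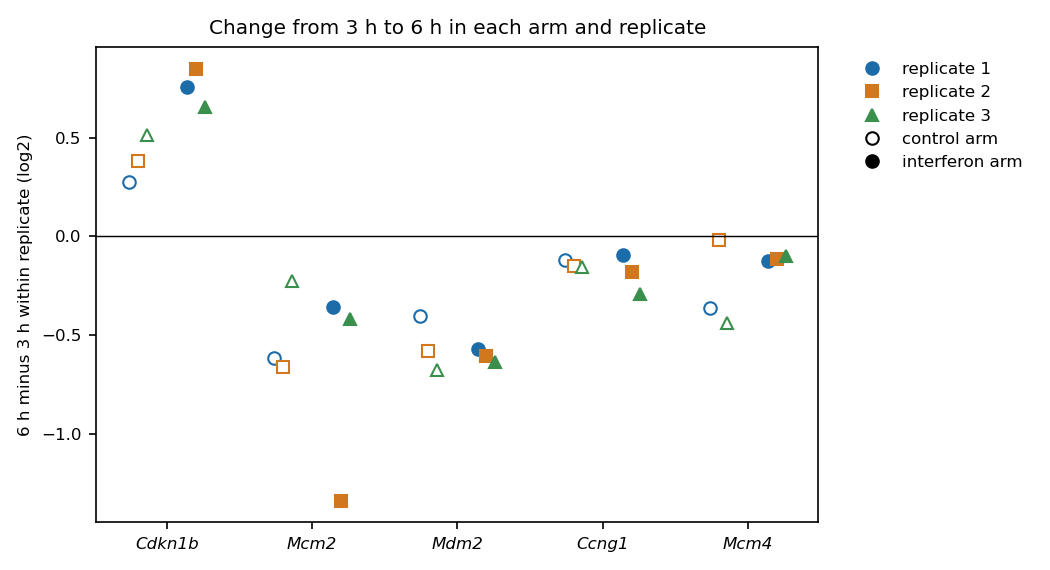
Difference between 6 h and 3 h within each replicate (log2 RMA, vertical axis) for the 5 members called with the replicate block, in the control arm (open symbols) and the interferon arm (filled). All 6 values lie above 0 for Cdkn1b, from 0.28 to 0.85, and below 0 for each of Mcm2, Mdm2, Ccng1 and Mcm4.

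On the probe set with its highest mean, no member of the G1 group or of the G2 and mitosis group was called over this time. Of the 10 G1 genes 0 were called with or without the block, beside 18.4% and 3.89% of all probe sets. Their averaged differences ran from -0.24 (Ccnd1) to 0.23 (Ccne2). Of the 13 genes of G2 and mitosis 0 were called, with differences from -0.16 (Ccnb2) to 0.09 (Aurkb). Other sets of Ccnd1 were called lower with the block, as given below. The 95% interval lay within 2-fold for 36 of 37 members, all but Ccnd1, and for 37 with the block. For the mitosis genes the low level limits what these intervals can show.

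Ccnd1, the D-type cyclin whose rise marks growth entry in hepatocytes, read differently on its 3 probe sets. The set with the highest mean gave -0.24 ± 0.36 in the averaged time difference (adjusted p = 0.196 with the block), and the other sets gave -0.55 (0.0422 with the block) and -0.79 (0.00296 with the block), with none called by limma without the block. Those sets went from 6.11, 5.33 and 7.69 in the controls at 3 h to 5.47, 5.37 and 6.43 at 6 h, and from 6.14, 5.19 and 7.94 to 5.39, 4.49 and 6.57. In the controls alone they gave -0.62 (adjusted p = 0.144 by limma with the block) and -0.94 (0.0188 with the block). Replicate 3 was highest on all 3 sets at both times, and on the sets other than the one with the highest mean it also had the largest fall. On the set with the highest mean the control arm fell more in replicate 1 (-0.279) than in replicate 3 (-0.169), and the interferon arm most in replicate 3 (-0.828). Cdkn1a differed by -0.02 ± 0.16 on its set with the highest mean and by -0.53 on the other (adjusted p = 0.525 by limma, 0.000398 with the block). That other set read 9.72, 10.70 and 9.71 in the controls at 3 h and 8.95, 10.23 and 8.70 at 6 h, against 10.77, 10.38 and 10.49, then 11.06, 10.32 and 10.19, on the first. The sets thus placed the replicates in a different order: over all 12 arrays the first was highest in replicate 1 (10.81, 10.46 and 10.31) and the other in replicate 2 (9.39, 10.47 and 9.18). For Mdm2 the 3 sets went the same way, at -0.58, -0.74 and -0.63, and the last pair were called also without the block (adjusted p = 0.00342 and 0.0485 by limma). Which probes these sets hold was not analysed here. Counting a gene as called where any of its probe sets was, the averaged time comparison held 3 members without the block and 7 with it, 8.11% and 18.9% of the 37, beside 5.89% and 26.3% of all 14217 genes counted the same way.

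**Figure D4:**
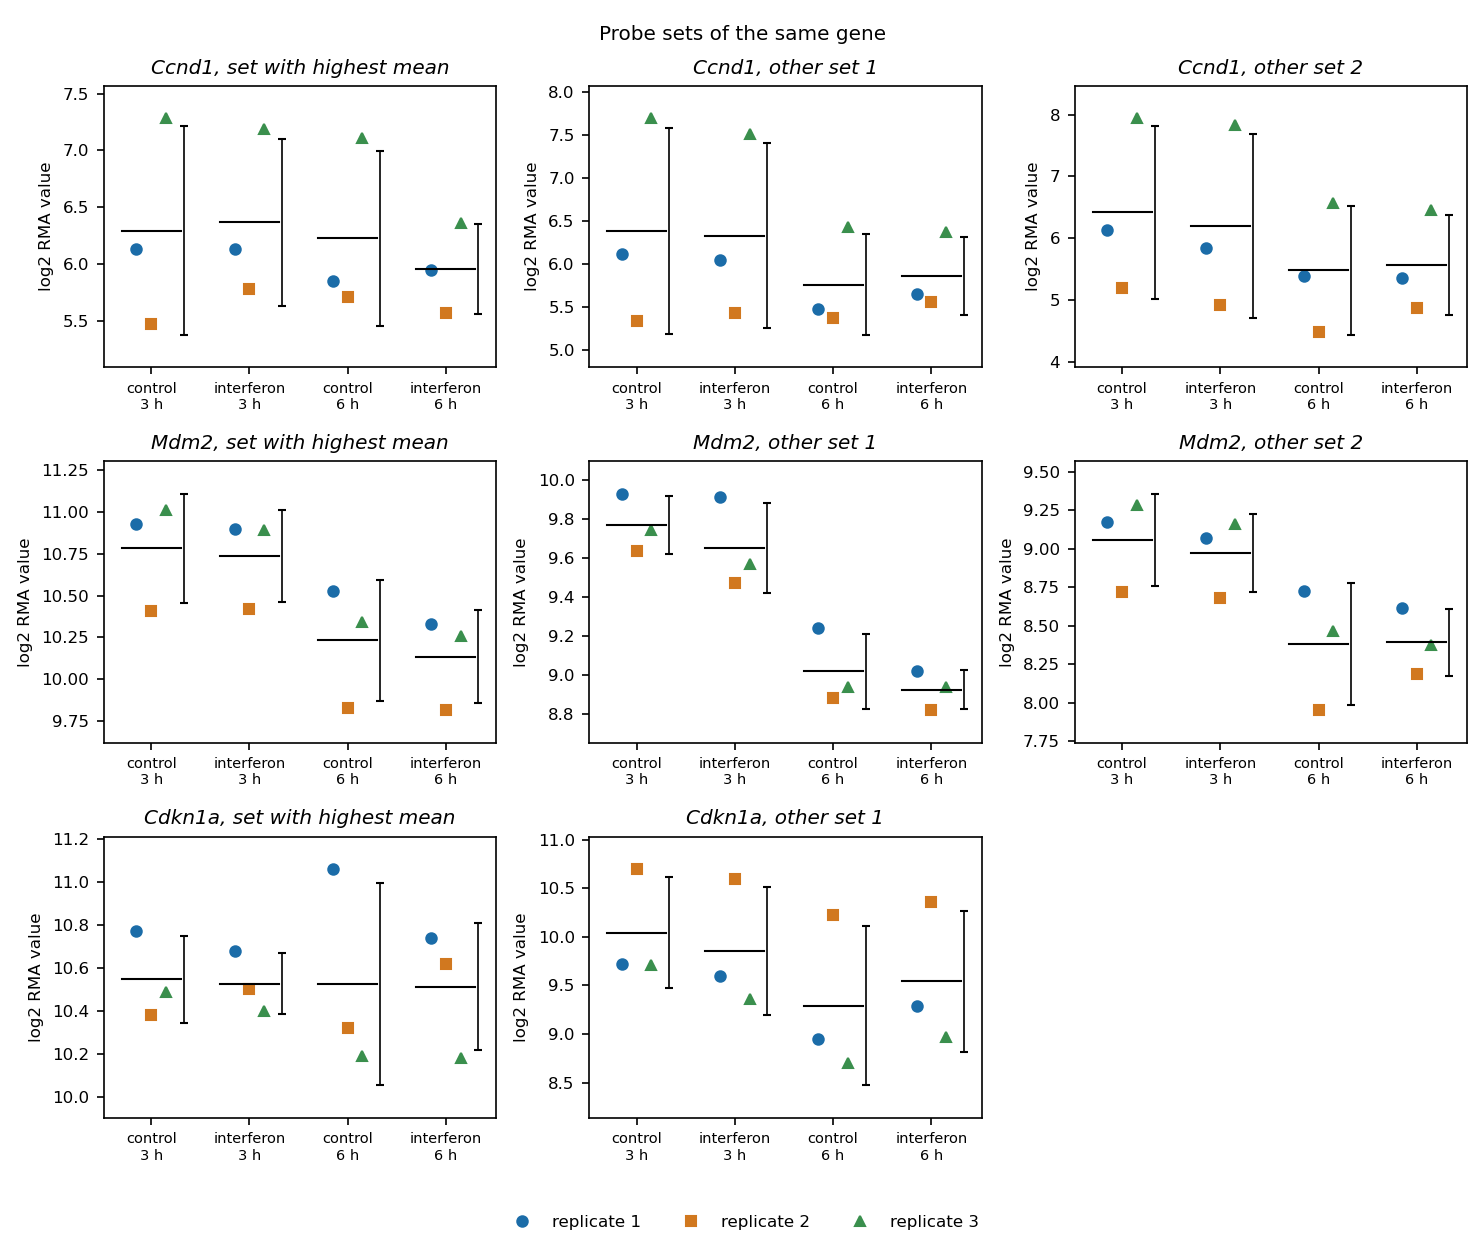
Log2 RMA value on each array for every probe set of Ccnd1, Mdm2 and Cdkn1a, by group, with replicates 1 to 3 as symbols, group means as lines and 1 SD as bars (n = 3). The 3 sets of Mdm2 all read lower at 6 h; the 2 sets of Cdkn1a order the replicates differently, and replicate 3 is highest on all 3 sets of Ccnd1.

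More members differed between the replicate numbers than between treatments. A test of the 3 replicate numbers across all groups (limma's moderated F) called 13 of 37 members, 35.1%, beside 29.9% of all probe sets, a share near the background. Ccnd1 had the widest range, with means over 4 arrays of 6.02, 5.63 and 6.99 in replicates 1, 2 and 3, 2.55-fold between the ends (adjusted p = 6.1e-05). Gadd45a was at 11.33, 10.67 and 11.56 (1.85-fold, adjusted p = 4e-04), Ccne2 at 5.13, 4.97 and 5.60 (1.55-fold, 0.00269), Mcm7 at 7.88, 7.28 and 7.58 (1.52-fold, 0.000247) and Mdm2 at 10.67, 10.12 and 10.62 (1.47-fold, 9.1e-05). The remaining 8 were Cdkn1a, Mcm4, Mcm6, Pcna, Ccnd3, Cdk4, Cdkn2c and Ccnb2, with ranges of 1.20-fold (Pcna) to 1.41-fold (Cdkn1a). Of the 13, 8 were highest in replicate 3 and 7 lowest in replicate 2. The order of the replicates over all called probe sets was not counted, so this is not read as a trait of the members. Of the 13 genes of G2 and mitosis Ccnb2 alone was called. Of those genes 12 had a mean below the lowest array median, where a difference may pass unseen. The replicate means given above are of the set with the highest mean. The second set of Ccne2 read 4.42, 4.30 and 4.26 and was not called (adjusted p = 0.614 by the same F test), nor was that of Cdkn2c (0.682). The other sets of Ccnd1, Mdm2 and Cdkn1a were called, that of Cdkn1a with another order of the replicates. Whether the replicates differ by animal, isolation, cell content or processing cannot be told apart. Within a group each array is 1 replicate number, and the mean over the Kupffer markers ran from 5.93 to 6.97 in the controls at 3 h. Whether such a range goes with the differences of the members was not tested.

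**Figure D5:**
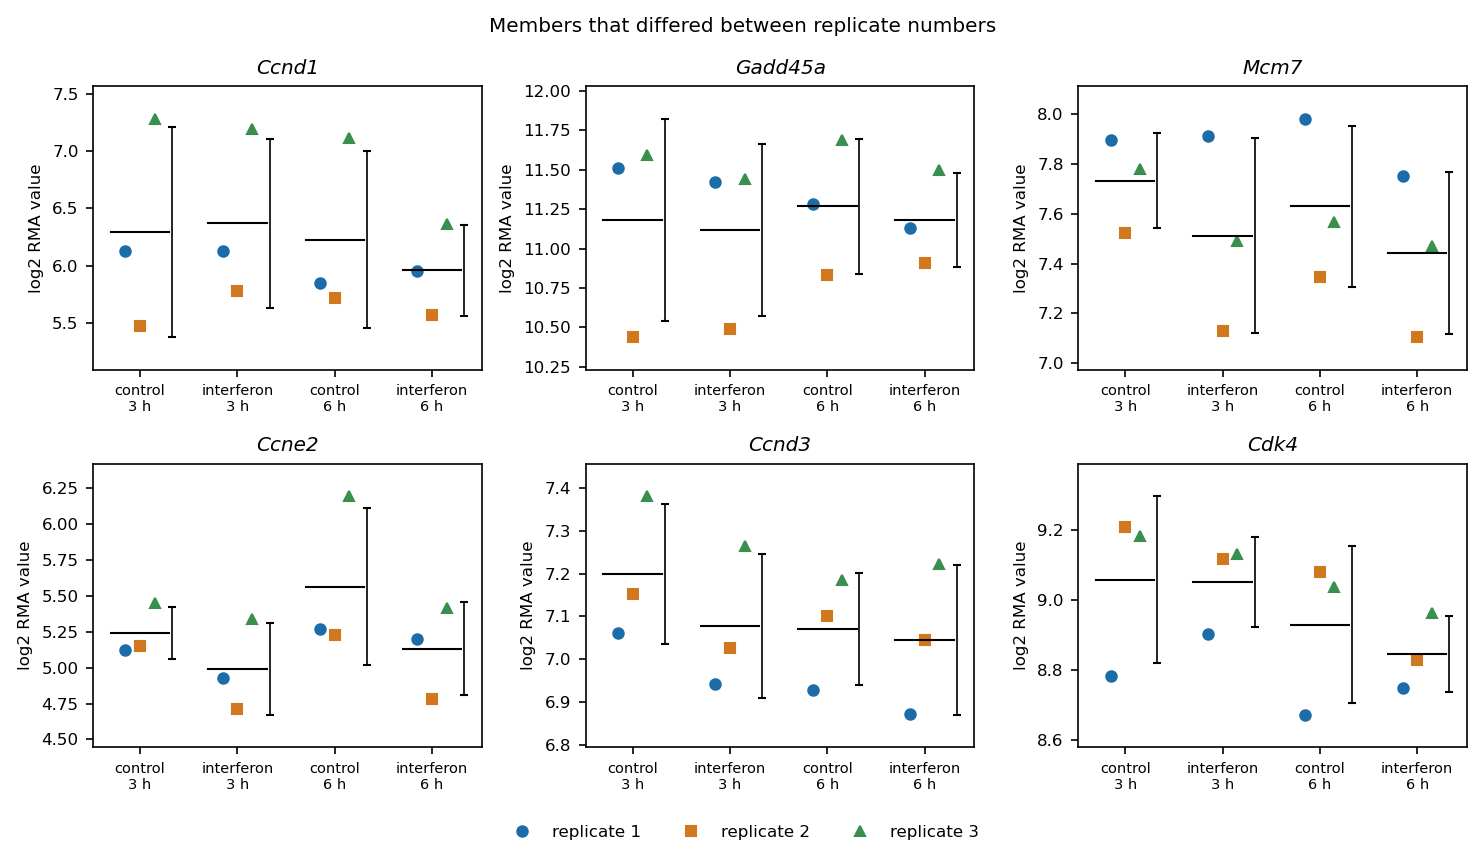
Log2 RMA value on each array for 6 members that differed between replicate numbers, by group, with replicates 1 to 3 as symbols, group means as lines and 1 SD as bars (n = 3). Replicate 3 is highest for Ccnd1 in all 4 groups, from 7.28 and 7.19 at 3 h to 7.11 and 6.36 at 6 h, and replicate 2 is lowest for Ccnd1 in all 4.

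Beyond the members, 179 of 204 listed genes of the same pathways were measured, in 5 lists. Interferon called 0 of them at 3 h, 6 h or averaged by limma without the block, beside 0.00644%, 0.387% and 0.435% of all probe sets. At an unadjusted p under 0.05, 2 were higher (1.12%) and 2 lower (1.12%) at 3 h, beside 2.08% and 0.867% of all probe sets. At 6 h and in the average 3 were higher (1.68%) and 3 lower (1.68%), beside 2.56% and 1.13% of all at 6 h and 2.95% and 1.53% in the average. Of all probe sets, the fit with the block called 1.1% at 6 h and 1.1% in the average. With the block 1 of the 179 was called, Gadd45g, a stress gene of the Gadd45 family, higher by 0.71 ± 0.40 (SE without the block) at 6 h (adjusted p = 1 by limma without and 0.0476 with the block) and by 0.66 ± 0.28 in the average (1 and 0.00796). Without replicate 1, 2 or 3 the blocked call of Gadd45g at 6 h was lost (0.0651, 0.461 and 0.242), and that in the average was lost without replicate 2 (0.245) or 3 (0.0884). Averaged over both arms, time called 7 higher (3.91%) and 7 lower (3.91%) of the 179 without the block, beside 1.97% and 1.93% of all probe sets, and 21 and 24 with it, beside 8.43% and 10%. All probe sets include dim ones and ones that name no gene, so these shares are not a like background. With dim probe sets left out, 1351 of 15521 were called without the block. Of all 14217 genes, 5.89% had any probe set called without the block and 26.3% with it. In the list of replication and S phase 1 of 45 rose and 4 fell, with a median of -0.06 beside 0.009 over all probe sets. Slbp, which binds histone mRNA, fell by 0.97 ± 0.16 (adjusted p = 0.00993 by limma), Ung, a uracil-DNA glycosylase, by 0.76 ± 0.16 (0.0247), Rfc4, part of the clamp loader, by 0.51 ± 0.11 (0.0329), and Dut, which keeps uracil out of DNA, by 0.43 ± 0.10 (0.0365), and Pold3, a subunit of DNA polymerase delta, rose by 0.32. The calls of Slbp and Pold3 were kept in 12 of 12 fits without 1 array, those of Ung, Rfc4 and Dut were lost in 7, 8 and 10 of them. With the mean of a gene's probe sets in place of the set with the highest mean, Pold3 (0.15, adjusted p = 0.538 by limma) and Dut (-0.16, 0.578) were not called, and Slbp was at -0.32 (0.0270). Dut was also not called with limma-trend (0.0541). In the list of G2 and mitosis 0 of 49 were called (3 up and 4 down with the block; median 0.006), with the lowest p for Kif2c, a microtubule-depolymerizing kinesin (0.19 ± 0.06), and Bub3, a spindle checkpoint protein (-0.17 ± 0.06). In the list of G1 control 1 of 27 rose, Fbxw7, the ubiquitin ligase subunit that marks cyclin E for breakdown, by 0.78 ± 0.12 (adjusted p = 0.00754 by limma), kept in 12 of 12 such fits.

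In the p53 and growth arrest list 2 of 27 rose, Ccng2, a cyclin of resting cells, by 0.66 ± 0.15 (adjusted p = 0.0345 by limma) and Perp by 0.29 ± 0.06 (0.0282), and Zmat3, a p53 target that binds RNA, fell by 0.48 ± 0.07 (0.00684). Without 1 array Ccng2 and Perp lost the call in 9 and 8 of 12 fits and Zmat3 in 0, and with the mean of its probe sets Perp was not called (0.19, adjusted p = 0.418 by limma). In the list of growth entry 3 of 31 rose and 2 fell, with a median of -0.001. The receptor Egfr, through which EGF drives hepatocyte growth, rose by 1.02 ± 0.21 (adjusted p = 0.0231 by limma), the related receptor Erbb3 by 1.01 ± 0.13 (0.00328) and the immediate-early transcription factor Junb by 0.72 ± 0.14 (0.0179). Jund, a transcription factor of the Jun family, fell by 0.50 ± 0.06 (0.00193), and Tgfa, a ligand of Egfr, fell by 0.49 ± 0.12 (0.0434). Erbb3, Junb and Jund kept the call in 12 of 12 fits without 1 array, Egfr lost it in 4 and Tgfa in 11. With the mean of a gene's probe sets the calls of Jund (-0.16, adjusted p = 0.228 by limma), Egfr (0.61, 0.109) and Tgfa (-0.38, 0.0652) were lost, and those of Erbb3 and Junb, which have 1 set each, were kept. Tgfa was also not called with limma-trend (0.0583). In the controls alone, without the block, Jund was the 1 called of the 179 (0.559%, beside 0.19% of all probe sets), at -0.53 ± 0.08 (adjusted p = 0.0365 by limma). This call was lost in 12 of 12 such fits (up to 0.131), with the mean of its sets (-0.21, 0.477), with limma-trend (0.0718) and in the fit on the controls alone (0.308). With the block 13 of the 179 were called higher and 8 lower in the controls, beside 3.33% and 4.82% of all probe sets. Of all 14217 genes, 12.3% had any probe set called in that fit.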

How the data were processed

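Per the labels' protocols, biotinylated cRNA made from 5 µg of total RNA was hybridised to 12 Affymetrix arrays. Per the submitters' processing notes, the authors made the deposited log2 values with RMA (package affy, R 2.10.0); the probe set definitions used are not given in the sources used here. RMA equalizes the arrays, and a change common to most transcripts would be lost. Array medians ran from 5.16 to 5.21 log2; the number of arrays limits the precision.

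After 57 control probe sets were left out, 31042 probe sets were tested with limma 3.58.1 under R 4.3.3 (lmFit, eBayes, two-sided) in 1 fit over 4 groups, with Benjamini-Hochberg adjustment over all of them in each comparison and a call under 0.05. The scripts were tested on simulated data. Gene names came from the platform annotation, where 20826 tested probe sets name 1 gene, 436 several and 9780 none; names and promoters were matched to RefSeq assembly GRCr8.

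Arrays with the same replicate number deviated together: deviations from group means correlated at 0.651 to 0.829 over 6 pairs of the same time and at 0.479 to 0.736 over 12 pairs across times, against -0.652 to -0.0747 over 48 pairs of different numbers. Deviations within a group cancel out, which by itself pushes pairs of different numbers in a group to negative values. The pairing is therefore read from the positive values of the same number. The numbers, taken from the titles, thus pair the arrays, and values with the number as a block stand beside those without it. The members and lists were chosen with earlier results of these data known. Values on every array are given for members called in any comparison with or without the block and for the 3 with the lowest unadjusted p in each; named genes of a further list are up to 4 called with the largest change, or the 2 with the lowest p where none was called. Pold3, Tgfa and, called only with the block, Gadd45g, beyond these, were named after their values were seen. Alternatives changed the block, the arrays, the variance prior, the centring, the filter on dim probe sets and the choice of probe set.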

Additional observations from a re-analysis of the deposited data

How the results depend on the processing

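Of 435 values of named members under 23 alternative settings, 419 kept their direction and side of the threshold, 4 lost a call, 12 gained one and 0 reversed. The 4 interferon counts over the members stayed at 0 under every alternative run. With the replicate block the count of members called for time was 2 in place of 0 in the controls and 5 in place of 2 in the average of both arms; counting any probe set of a gene in the blocked fit, an alternative chosen after seeing the data, gave 4 and 7. The block changed no other call of a member. Leaving out 1 array gave 1 to 2 members in the average, and leaving out 1 replicate number in the blocked fit gave 0 to 1 in the controls and 3 to 5 in the average. Over all probe sets the count for 6 h minus 3 h moved from 1209 to 5724 with the block, and in the controls from 59 to 2529, and for interferon from 2 to 30 at 3 h, from 120 to 340 at 6 h and from 135 to 341 in the average. The block within each time gave 10, 341 and 399 for these 3 interferon counts, and the fit on only the groups compared gave 0 at 3 h, 69 at 6 h and 2 for the controls in time. With limma-trend the controls held 8 and 3 h held 1, robust eBayes gave 0 at 3 h, and centring or leaving out dim probe sets gave 1 there. With 1 array left out the counts were 0 to 23 at 3 h, 56 to 124 at 6 h, 2 to 16 for the controls and 644 to 989 for the average time difference. The block within each time could not give the time comparisons, since it absorbs them. Fits restricted to the groups compared are the fit over all 12 arrays for the averages and for the difference between the times. Signal near the array background limits the genes of G2 and mitosis.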
